A study of Mus musculus with 2 samples.

Results

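The 7 genes described here, Car4, Plet1, Krt79, Krt19, Trim29, Perp and Net1, belong to the transcript signature that sets alveolar macrophages, which live on the airspace side of the lung, apart from other macrophages. They were found as the rows of the deposited table annotated with exactly 1 gene symbol that is one of these names. Each of the 7 had 1 such row, out of 22180 genes with a row of that kind. One further row, annotated with Plet1 together with its antisense gene Plet1os, was left out.

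The study compared alveolar macrophages of 2 genotypes of adult C57BL6 littermates. The knockout mice carried floxed Pikfyve alleles and LysM-Cre, a Cre recombinase expressed from the lysozyme 2 locus, which is active in myeloid cells in general and not in alveolar macrophages alone. The wild type mice, per the labels, carried the floxed alleles too, without Cre. PIKfyve phosphorylates a phosphoinositide lipid of endosome and lysosome membranes. Lungs were digested with collagenase, and living cells positive for Siglec-F and CD11c were sorted. There was 1 Affymetrix array per genotype, and the sources used here do not give the number of mice behind each. With 1 array each, no difference could be tested and no replicate error exists for any value below. Each difference below is the knockout value less the wild type value, in log2 units of the values that the authors had normalised with RMA.

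Alveolar macrophages take up surfactant, inhaled particles and dying cells, and mature in the airspace under GM-CSF and TGF-beta through the transcription factor PPARgamma. Several of their signature genes are better known from epithelia. Keratins form intermediate filaments from pairs of a type I and a type II protein. Krt79 encodes a type II keratin known from hair follicles and Krt19 a type I keratin of simple epithelia. Car4 encodes a carbonic anhydrase held on the outer cell surface by a GPI lipid anchor, and Plet1 a GPI-anchored glycoprotein. Perp encodes a membrane protein of desmosomes that is a target of p53 and p63. Trim29 encodes a TRIM protein reported in mouse alveolar macrophages to restrain innate signalling, and Net1 a guanine nucleotide exchange factor.

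Pikfyve itself read 5.95 in the array labelled knockout and 5.68 in the array labelled wild type. The position of its probes within the gene is not known here, so this row checks nothing about the deletion, and the arrays are named by their labels throughout. As a measure of background, the 95th percentile of 1432 olfactory, vomeronasal and taste receptor genes was 5.31 in the knockout array and 5.37 in the wild type array. All 20 measured genes of a list of other alveolar macrophage markers lay above that level on both arrays, as did 7 of 8 general macrophage markers. Itgam, of the second list, lay below it on both, which is usual for resident alveolar macrophages. The genes of the sorted proteins were present, with Siglecf at 8.54 and 9.27 and Itgax, which encodes CD11c, at 10.39 and 10.03 in the knockout and wild type arrays.

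The promoter sequences of 3 members are shown because these genes span the range of differences found: Krt79 had the most negative difference of the 7, Car4 the most positive, and Plet1 differed little. Promoters were listed for 4 of the 7 members, Net1 being the fourth, with 2 start sites. Each window runs from 250 bases before to 50 bases after the annotated start and was taken from RefSeq (build GRCm38.p6), written 5′ to 3′ on the strand of the gene. Capitals mark matches, on either strand, to any of 5 motifs: TATAAA (the TATA box), CACGTG (the E-box read by MiT/TFE factors), GAGGAA (the core read by PU.1), TGANTCA (AP-1) and AGGTCA (read by nuclear receptors such as PPARgamma with RXR). No marked matches overlap.
Krt79, chr15:101940275-101940574, minus strand: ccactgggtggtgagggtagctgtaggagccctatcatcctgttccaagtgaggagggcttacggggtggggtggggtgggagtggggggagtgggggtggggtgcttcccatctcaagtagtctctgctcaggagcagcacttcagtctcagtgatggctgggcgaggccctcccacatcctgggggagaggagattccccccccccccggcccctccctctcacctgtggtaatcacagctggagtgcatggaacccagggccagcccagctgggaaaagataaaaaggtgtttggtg
Car4, chr11:84957504-84957803, plus strand: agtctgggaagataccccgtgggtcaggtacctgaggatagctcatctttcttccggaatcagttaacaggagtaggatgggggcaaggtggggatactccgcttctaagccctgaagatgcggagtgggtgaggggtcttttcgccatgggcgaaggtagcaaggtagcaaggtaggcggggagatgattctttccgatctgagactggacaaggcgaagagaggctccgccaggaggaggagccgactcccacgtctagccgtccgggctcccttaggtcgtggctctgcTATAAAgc
Plet1, chr9:50494275-50494574, plus strand: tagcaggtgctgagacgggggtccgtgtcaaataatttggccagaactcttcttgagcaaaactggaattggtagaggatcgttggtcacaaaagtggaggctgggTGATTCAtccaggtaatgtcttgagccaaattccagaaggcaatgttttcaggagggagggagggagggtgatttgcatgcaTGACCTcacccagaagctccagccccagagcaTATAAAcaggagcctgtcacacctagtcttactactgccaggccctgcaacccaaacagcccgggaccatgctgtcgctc

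The Krt79 window held none of these letters. The Car4 window held TATAAA once, 43 bases into the transcript. The Plet1 window held TATAAA at position -30, TGANTCA at -144 and AGGTCA on the opposite strand at -62, counted to the first base of the match. The Net1 windows are not shown. That at chr13:3893532-3893831, minus strand, held CACGTG at -21 and GAGGAA on the opposite strand at -173, and the other Net1 window held none of the motifs. Among 32817 promoter windows of the same length, 13.6% held TATAAA, 7.81% TGANTCA, 16.3% AGGTCA, 7.15% CACGTG and 28.3% GAGGAA. A match describes the letters only, and binding was not measured here.

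All 7 genes lay well above background on both arrays, by at least 2.21 log2 units, so signal of each was present in both sorted samples. Of all 22180 genes, 11183 had a mean over the arrays that reached the receptor-gene background. Krt79 was the only member at least 1.5-fold apart. Car4 read somewhat higher and Net1 somewhat lower in the array labelled knockout, and Plet1, Krt19, Trim29 and Perp were within 0.15 log2 units between the arrays.

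**Figure D1:**
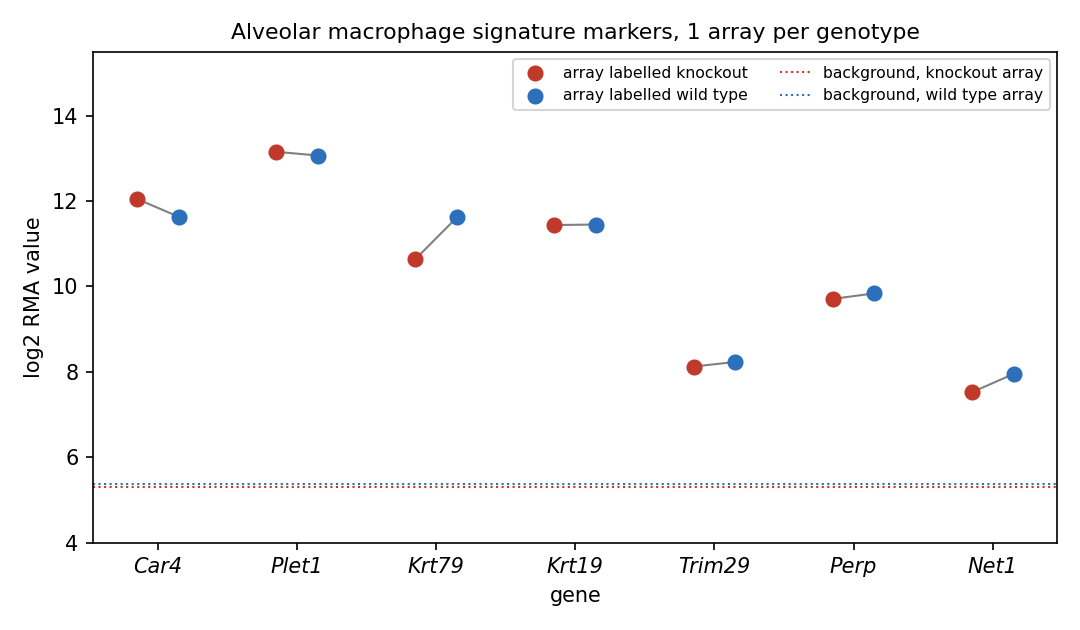
The log2 RMA value of each member is plotted for the array labelled knockout (left point, red) and the array labelled wild type (right point, blue), 1 array per genotype, with dotted lines at the receptor-gene background of each array (5.31 and 5.37). Krt79 has the widest gap, at 10.63 against 11.62, and no point lies near background; heights are not comparable between genes.

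Of the 2 keratins, the type II keratin gene Krt79 read 10.63 in the array labelled knockout and 11.62 in the array labelled wild type, a difference of -0.98 or 1.97-fold lower. The type I keratin gene Krt19 read 11.44 in the knockout array and 11.45 in the wild type array, a difference of -0.01. The keratins did not read alike: one was nearly equal on both arrays and the other was not. Among the genes analysed, 0.391% read at least as far down as Krt79, and in the highest of 20 bins of level, which holds 625 genes, only 2 did, Krt79 among them. The local spread in that bin, a robust standard deviation of the differences between the arrays, was 0.20, the lowest of the 20 bins. The Krt79 difference was 4.82 times as large as this spread.

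Of the 7 members, 1 was at least 1.5-fold lower, against 2.66% of the 12516 genes analysed, and 0 were at least 1.5-fold higher, against 4.45%. At 2-fold, 0 members were higher and 0 lower, against 0.927% and 0.336% of all genes. Krt79 lies just short of the 2-fold line and crosses it, at -1.05 and -1.10, when the arrays are quantile normalised again or centred by loess. With 7 members these shares describe a single gene.

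Among the GPI-anchored surface proteins, Car4 read 12.05 in the array labelled knockout and 11.63 in the array labelled wild type, a difference of 0.42 or 1.34-fold higher. At least as large a positive difference was seen in 9.27% of the genes analysed. As read, the Car4 difference was 2.06 times the local spread. It lay 0.30 above the median difference of genes at that level, which was itself 0.12. Plet1 read 13.15 in the knockout array and 13.06 in the wild type array, a difference of 0.09 that is smaller than this shift of its level bin. Other GPI-anchored genes were little apart: of 10 that passed the filter on low values, 7 were higher and 3 lower, none by 1.5-fold. Their median was 0.08 (all genes 0.00), or -0.02 with loess centring. The widest were Bst2, which encodes the antiviral protein tetherin, at 0.40, Cd48 at 0.30 and Cd52 at -0.25.

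The remaining 3 members act in signalling, adhesion or death. Net1 read 7.52 in the array labelled knockout and 7.95 in the array labelled wild type, a difference of -0.43 or 1.35-fold lower, 1.36 times the local spread. A difference at least as far down was seen in 6.73% of the genes analysed. Perp read 9.71 in the knockout array and 9.84 in the wild type array, a difference of -0.13. Trim29 read 8.12 in the knockout array and 8.23 in the wild type array, a difference of -0.11. Perp and Trim29 both lay within their local spreads of 0.30 and 0.33.

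Across the 7 members 2 were higher and 5 lower, with a median difference of -0.11, against 0.00 and 49.6% lower among all genes analysed. Without Krt79 the median was -0.06 and no member was more than 0.43 apart. Genes at the members' levels tended to read higher, with bin medians of 0.06 to 0.15. Measured from the median of its own bin, Car4 lay at 0.30 and Plet1 at -0.03. Krt19, Trim29 and Perp lay at -0.13, -0.18 and -0.28, Net1 at -0.49 and Krt79 at -1.10. With loess centring the median of the 7 members was -0.18. Plet1, Krt19, Trim29 and Perp belong to the 40.6% of genes whose arrays were less than 0.15 apart.

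**Figure D2:**
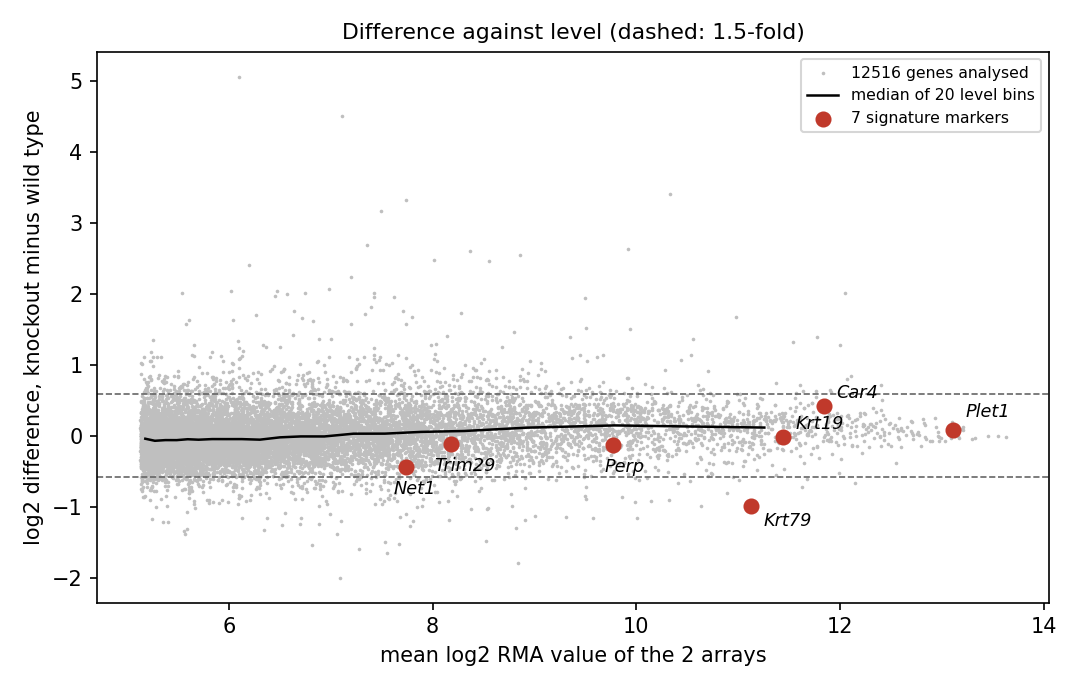
The log2 difference (knockout minus wild type, vertical axis) is plotted against the mean log2 value of the 2 arrays (horizontal axis) for 12516 genes (grey) and the 7 members (red), with the median of 20 level bins (black line) and 1.5-fold marked by dashed lines. Krt79 lies at -0.98 at the lower edge of genes of its level, while the other 6 members lie between the dashed lines.

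The families of the members were set beside them to show how their relatives read. Of 51 other keratin genes, 23 passed the filter, 9 of them higher and 14 lower, and none was 1.5-fold apart in either direction. Their differences ran from -0.43 to 0.48 with a median of -0.11. Krt8 and Krt18, the usual type II and type I keratins of simple epithelia, read 6.17 and 5.52 in the knockout array and 5.91 and 5.36 in the wild type array, close to background, which Krt18 did not exceed in the wild type array. Among dim keratins that failed the filter, Krt15 was above background in the wild type array alone (5.67), at least 1.28-fold lower when measured from the background of the knockout array.

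Carbonic anhydrases included a gene that differed more than Car4. Of 13 other family members, 8 passed the filter, with 5 higher and 3 lower and a median of 0.08. Car13, a cytosolic isozyme, read 7.52 in the array labelled knockout and 5.76 in the array labelled wild type, 3.39-fold higher. Car5b, a mitochondrial isozyme, differed by 0.42, as Car4 did. Car12, a transmembrane isozyme, was below background in the knockout array and at least 1.35-fold lower.

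**Figure D3:**
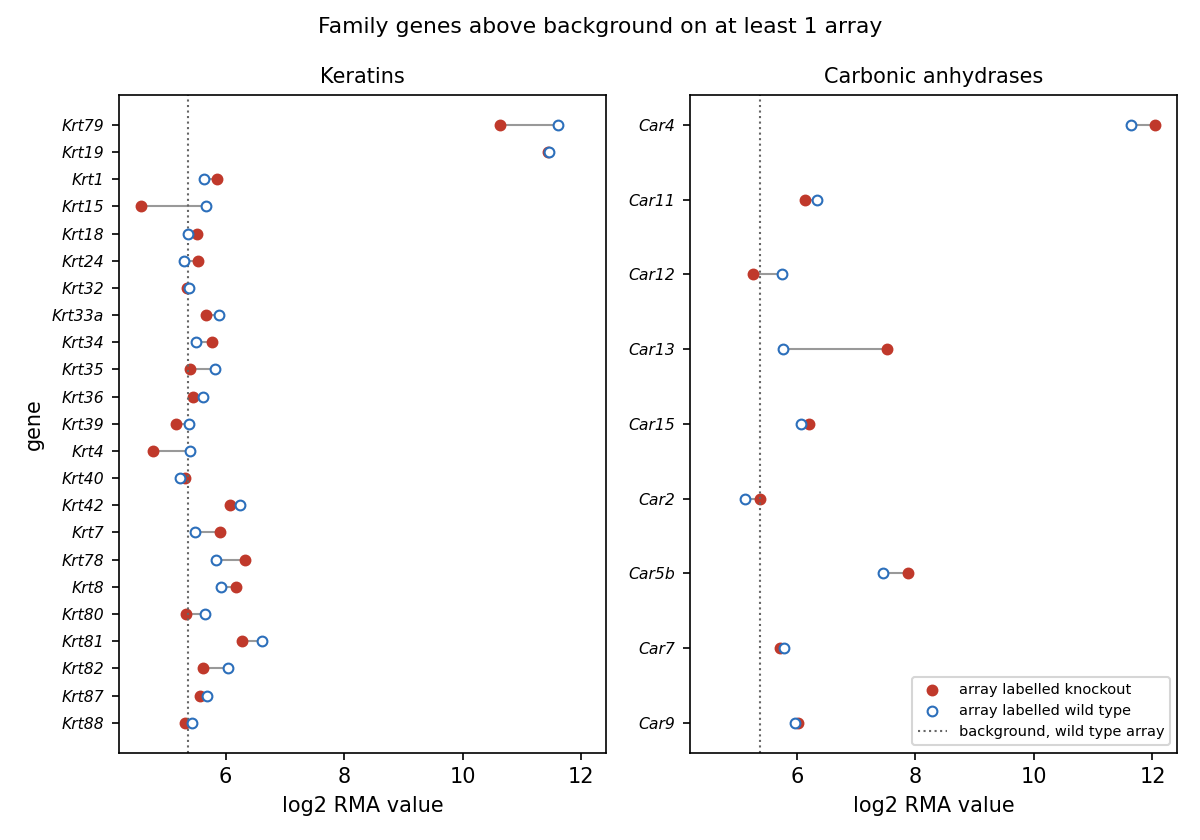
Log2 RMA values of the keratin genes (left) and carbonic anhydrase genes (right) above background on at least 1 array are shown for the array labelled knockout (red) and the array labelled wild type (open blue), joined by a line, with the members at the top and the wild type background dotted. Among keratins only Krt79 and Krt19 lie far from background, and among carbonic anhydrases Car13 has a wider gap (7.52 against 5.76) than Car4.

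Trim29 has many relatives, and 37 of 62 other Trim genes passed the filter, with 17 higher, 19 lower and a median of -0.03. Past 1.5-fold as read were 1 higher gene, Trim50, which lay at background in the wild type array and is at least 1.07-fold higher, and 4 lower genes, Trim35, Trim30b, Trim30d and Trim43c. The largest negative differences were those of Trim35, at least 1.61-fold lower, Trim30b, at least 1.44-fold lower, and Trim30d, 1.58-fold lower at 6.53 in the knockout array and 7.19 in the wild type array. The Trim30 genes are close copies, so probes may be shared. Of the innate signalling genes on whose products TRIM29 is reported to act, or that work beside them, 7 passed the filter, 3 higher and 4 lower, with a median of -0.02 and none 1.5-fold apart. Cgas, the cytosolic DNA sensor, differed by -0.56, Ikbkg, which encodes NEMO, by -0.41 and Rela, an NF-kappaB subunit, by -0.20. Cgas and Ikbkg read 5.42 and 5.32 in the knockout array, close to its background of 5.31.

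Perp was set beside its transcriptional and its structural partners. Of 10 other p53 target genes past the filter, 6 were higher and 4 lower, with a median of 0.03. Phlda3, which opposes the kinase AKT, was 2.45-fold lower, at 8.17 in the knockout array and 9.46 in the wild type array, Pmaip1, which encodes the death protein NOXA, differed by -0.57, and the death receptor gene Fas by 0.40. Desmosome genes were mostly dim: 8 of 12, Dsp among them, lay at or below background on both arrays. The 5 that passed the filter had a median of 0.08 and lay between -0.23 and 0.23, with Evpl at least 1.16-fold higher, Ppl at background on both arrays and Pkp4 at 0.09.

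Other alveolar macrophage markers, a list that holds none of the 7 members, were split as well. Of 20, 12 were higher and 8 lower with a median of 0.12, or 0.03 with loess centring. At 1.5-fold or more 3 were higher (Slc39a2, Ctsk and Fabp4), against 4.45% of all genes analysed. Lower by as much were 4 (Siglecf, Lpl, Kcnip4 and Cidec), against 2.66%. Slc39a2, a zinc transporter gene, read 11.82 in the array labelled knockout and 10.15 in the array labelled wild type, and the protease gene Ctsk 12.20 in the knockout array and 10.88 in the wild type array. Siglecf, whose product was used for the sort, was 1.66-fold lower. General macrophage markers had a median of -0.01 over 7 genes, with Csf1r, Adgre1 and Fcgr1 at -0.35, -0.34 and -0.30.

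Because the members are also transcribed in epithelium or, for Car4, in lung capillary endothelium, markers of those cells were read on the same arrays. In a bulk sample, fewer cells of a type and less RNA per cell cannot be told apart. Endothelial markers were at or near background: 7 of 9, among them Cdh5, Kdr and Cldn5, lay at or below it on both arrays, and their summed linear signal was 287 in the knockout array and 301 in the wild type array. The endothelial genes above background, Vwf and Pecam1, differed by 0.16 and -0.21, beside 0.42 for Car4. Pecam1 was barely above it, at 5.32 in the knockout array against a background of 5.31. Basal and general epithelial markers had 5 of 11 genes above background on both arrays, while Krt14, Trp63, Cldn4 and Elf3 were at or below it on both. Their summed signal was 800 in the knockout array and 1053 in the wild type array, and Epcam, an adhesion molecule of epithelium, read 6.09 in the knockout array and 8.09 in the wild type array. Among the 6 genes past the filter Epcam alone was 1.5-fold apart, and the sums were not taken again without it. Cdh1, the brightest gene of the list, read 8.64 in the knockout array and 8.74 in the wild type array. Krt7 and Krt8, of the same list, differed by 0.43 and 0.26. The median was 0.11 over the 6 genes past the filter, -0.20 over all 11 and -1.05 with the filter moved to the 75th percentile of all rows.

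Airway secretory and ciliated cell markers were above background for 7 of 10 genes on both arrays, with a summed signal of 8775 in the knockout array and 7311 in the wild type array. Of the 8 past the filter 6 were higher and 2 lower, with a median of 0.39, against 0.11 over all 10. Bpifa1, Scgb3a1 and Scgb3a2, secreted proteins of airway cells, were 5.53-fold, 2.77-fold and 1.99-fold higher, whereas Tppp3 differed by -0.51, Scgb1a1 by 0.14 and Ccdc153 by 0.01, and Muc5b was at least 1.05-fold lower. Beside them Krt19 and Perp differed by -0.01 and -0.13. Alveolar type 1 markers had 4 of 9 genes above background on both arrays and a summed signal of 801 in the knockout array and 667 in the wild type array, with 3 higher and 3 lower past the filter and a median of 0.00, or 0.38 where genes had to exceed the receptor-gene background. Pdpn differed by 0.53, Hopx by 0.50 and Ager by -0.08, and Aqp5 was at least 1.28-fold higher. Alveolar type 2 markers had 6 of 10 above background on both and a summed signal of 1686 in the knockout array and 1735 in the wild type array, or 1148 and 770 without Napsa, a comparison added after seeing the data. Past the filter 4 were higher and 4 lower with a median of 0.08, or 0.78 and 0.51 under 2 stricter filters (the 75th percentile of all rows and the receptor-gene background). Among them were Cxcl15 at 0.92, Sftpa1 at 0.84, Sftpc at 0.78 and Napsa at -0.84. The part of these cells in the members' values was not tested.

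Markers of other leukocytes differed between the arrays as well. All 6 neutrophil markers were higher, with a median of 0.74 and summed signals of 9178 in the knockout array and 6597 in the wild type array, Camp, Retnlg and Ly6g differing by 1.09, 0.93 and 0.78. All 5 monocyte markers were lower, with a median of -1.02 and summed signals of 665 in the knockout array and 1244 in the wild type array, Fn1, Ms4a4c and Plac8 differing by -1.54, -1.33 and -1.02. Lymphocyte markers had a median of 0.04 over 5 genes, or 0.96 and 0.32 under the 2 stricter filters, and summed signals of 622 and 407 in the knockout and wild type arrays, with Gzma at 1.14, Cd3d at 0.78 and Cd79a at -0.15. Dendritic cell markers had a median of 0.04 over 5 genes and summed signals of 634 and 561 in the knockout and wild type arrays, with Ccr7 at 0.66, Batf3 at -0.19 and Itgae at 0.12. No eosinophil marker was above background on both arrays, though Prg2 was at least 1.31-fold higher, and the list summed to 125 and 79.9 in the knockout and wild type arrays. Their part in the members' values was not tested either.

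**Figure D4:**
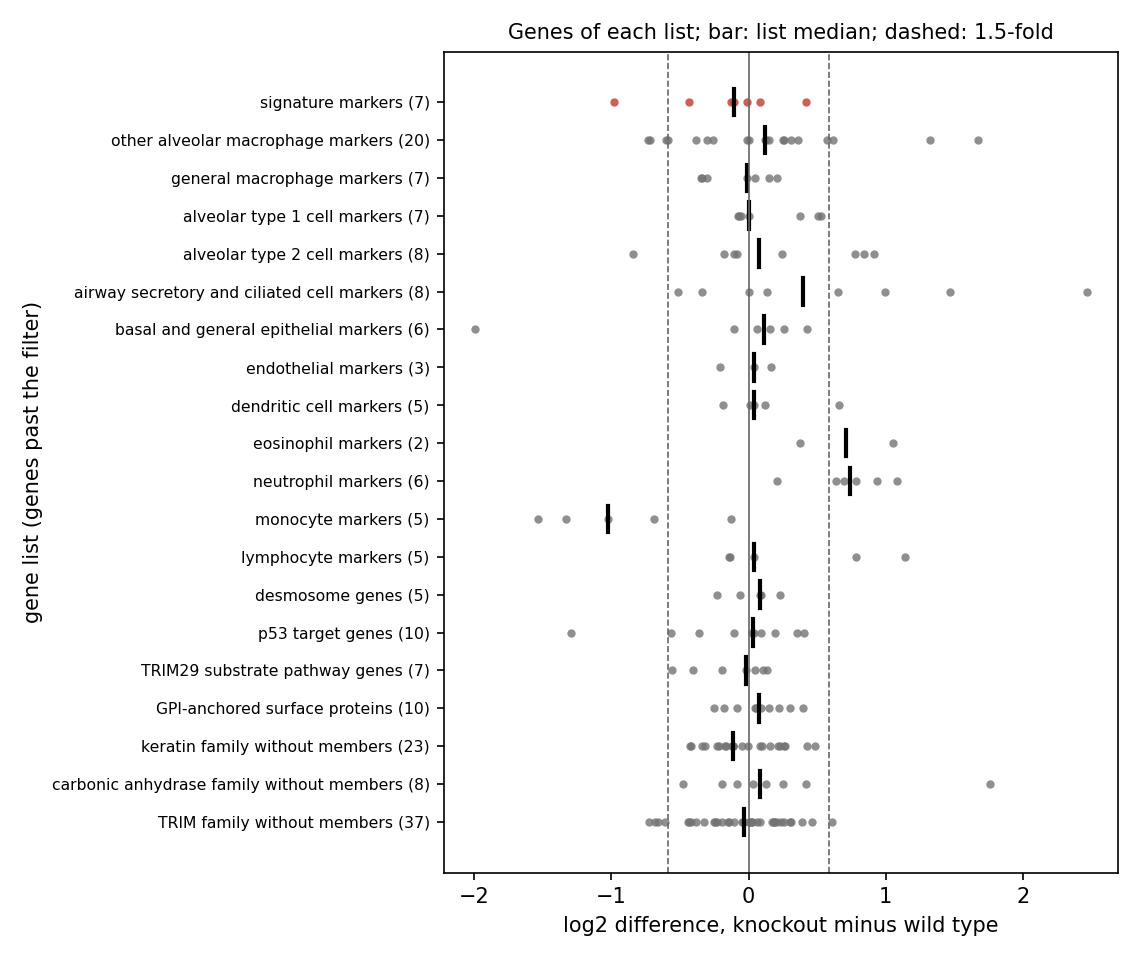
Each point is the log2 difference (knockout minus wild type, horizontal axis) of 1 gene past the filter, with the members in the top line and every other list below it; black bars are list medians, the number of genes is in brackets, and dashed lines mark 1.5-fold. The members centre on -0.11 with Krt79 alone beyond the dashed lines, while neutrophil markers (0.74) and monocyte markers (-1.02) have the highest and the lowest median of the lists drawn.

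The neighbours of each member along its chromosome, 5 measured genes on each side, were examined after the values were seen. Around Krt79, in the type II keratin cluster, 7 of 10 neighbours passed the filter, 5 of them higher and 2 lower. Their median was 0.16 and none was 1.5-fold apart, beside -0.98 for Krt79 itself. Apart from Eif4b, at 8.91 in the knockout array and 8.76 in the wild type array, these neighbours read between 5.19 and 6.32. Genes so close to background have little room to read lower, so they cannot show whether the locus differed. Around Plet1 all 5 neighbours that passed the filter were higher, with a median of 0.51 (Ttc12, Pts, Bco2, Il18 and Sdhd), while Plet1 differed by 0.09. Around Krt19, in the type I cluster, the 5 that passed (Krt32, Krt35, Krt36, Krt13 and Krt42) were all lower with a median of -0.16. These 5 keratins were dim, between 5.10 and 6.24 over the 2 arrays, and Krt13 lay below background on both. Around Net1 the 4 that passed (Tasor2, Asb13, Calm4 and Calm5) were all lower with a median of -0.11. Of all 12516 genes analysed, 6117 were higher and 49.6% were lower. Medians around Car4, Trim29 and Perp were 0.03, 0.01 and 0.14.

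The genes whose pair of values lay nearest to that of a member, by Euclidean distance over the 2 arrays, were Klra2 and Pilra for Krt79, Rabac1 and Ltc4s for Car4, and Lgals1 and Rpl28 for Plet1. They were Rsu1 and Hnrnpc for Krt19, B4galt1 and Marchf2 for Trim29, Ddx18 and Stk17b for Perp, and Herpud2 and Cebpa for Net1. The distances ran from 0.0023 to 0.35 log2 units, the largest being those of Krt79, which has few genes near it. Over 2 arrays this likeness is a description of 2 numbers.

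**Figure D5:**
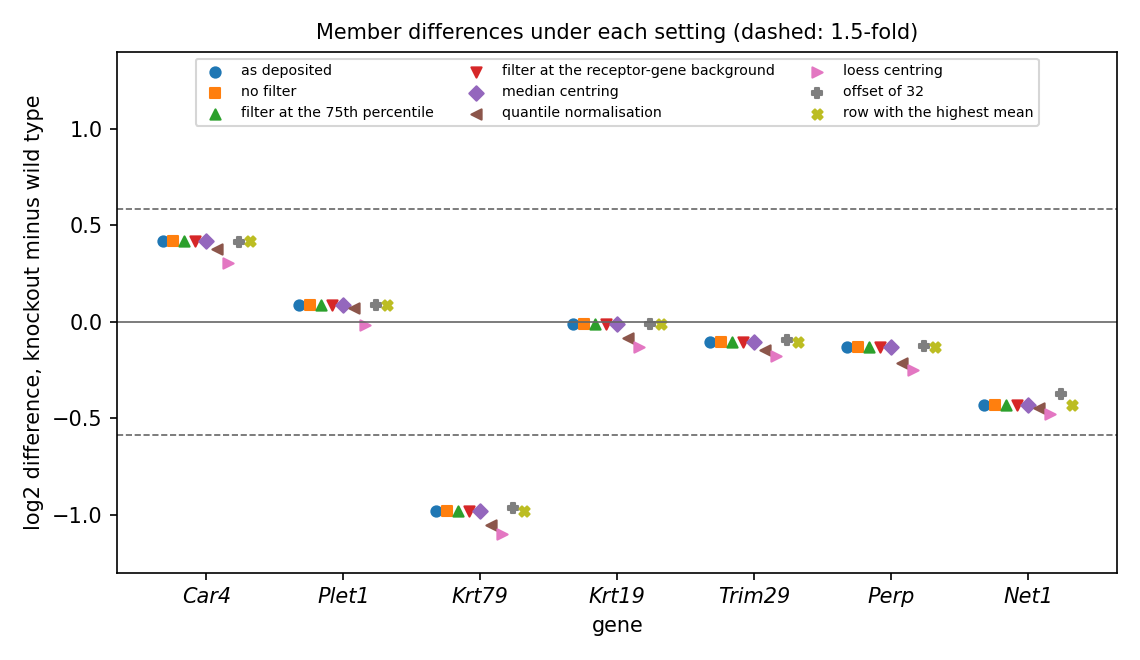
The log2 difference (knockout minus wild type) of each member is shown for the values as deposited and under 8 alternative settings (symbols), with 1.5-fold marked by dashed lines. Only 3 settings (quantile normalisation, loess centring and the offset) could alter a member's value, and under these Krt79 lies between -1.10 and -0.97 and Car4 between 0.31 and 0.42, and Plet1 crosses 0 under loess centring.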

How the data were processed

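The deposited log2 values cover 41345 probe sets on each of 2 arrays. The authors made them with RMA, per the submitters' processing notes, a method that subtracts background, brings arrays to 1 distribution and combines the probes of a set. Large folds are compressed on such arrays. As deposited, the 2 arrays were not on identical distributions: the median of all rows was 5.10 in the knockout array and 5.17 in the wild type array. No version, annotation or build is given in the sources used here, and scanner files were not used here. The log base follows from the method and the range of the values. Rows were named through GEO's platform annotation: 23521 had 1 symbol, 1814 several and 16010 were not listed. Of the former, 23328 matched a RefSeq table (GRCm38.p6) by Entrez identifier, and 0 symbols differed. Rows of a gene were averaged, and genes with a mean of at least 5.13, the median of all rows, were analysed (12516). Where 1 array lay at background, folds are "at least" and measured from that level. The local spread is the scaled median absolute deviation of differences in 20 level bins, 0.20 to 0.33 over the bins. Multiples of it were taken of the differences as read, without subtracting the bin median.

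With 1 array per genotype there was no test, and depth is known only as signal over background. The members and lists were chosen with earlier results of these data known. Genes named were the members, the 3 list genes with the largest absolute difference past the filter, the sorted markers, family genes above background and the 2 genes nearest each member; other names were added after values were seen. The result of 1 list is not reported here. Alternatives were 3 filters, 3 normalisations, an offset of 32, the brightest row, a 3-fold threshold and 3 local spreads. The 2-fold count and the local spread were run on simulated data built on either side of that threshold. That count was therefore set in advance and checks only the counting step. The software was Python 3.11.15, numpy 2.4.6, pandas 2.3.3 and statsmodels 0.14.6.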

Additional observations from a re-analysis of the deposited data

How the results depend on the processing

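Precision is limited by having 1 array per genotype, and leaving out a sample leaves no comparison. Of 8 alternatives to the filter, the normalisation, the offset and the row rule, 5 could not alter a member's difference, since each member has 1 row, passes every filter and the median difference of all genes is 0. Under the other 3 (quantile normalisation, loess centring and the offset) each difference moved by less than the local spread, and the signs held except that of Plet1, which was -0.02 under loess centring. Krt79 ranged from -1.10 to -0.97, and the count of members at least 2-fold lower was 1 with quantile normalisation and 1 with loess centring. At 3-fold, 0 members were lower. Counts over all genes depended on the threshold and filter. At least 1.5-fold higher genes numbered 969 with no filter, 371 with the filter at the 75th percentile, 292 with the offset, 37 at 3-fold and 197 at 3 local spreads. At least 1.5-fold lower genes numbered 833, 175, 120, 4 and 93 under the same settings. At 2-fold, 175 were higher and 117 lower with no filter, and 62 higher and 18 lower with the offset. These counts moved because fewer or more genes were tested, the threshold changed or the offset shrank the differences of dim genes. The median of eosinophil markers was 0.38 with the offset, against 0.71 without it. List medians moved by more than the typical local spread in 9 of 124 recomputations, all with a filter or the offset changed, the widest being the median of basal and general epithelial markers, -1.05 where genes had to reach the 75th percentile.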
